A study of Mus musculus with 8 samples.

Results

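The enzymes and electron carriers of mitochondrial beta-oxidation other than the thiolases were examined in mouse 8-cell embryos and morulae. These 10 genes were chosen by name from the pathway: the acyl-CoA dehydrogenases Acadvl, Acadl, Acadm and Acads, the trifunctional protein subunit Hadha, the hydratase Echs1, the hydroxyacyl-CoA dehydrogenase Hadh, the isomerase Eci1 and the electron transfer flavoprotein subunits Etfa and Etfb. They are 10 of 31899 entries in the 8-cell table and 10 of 29202 in the morula table. All 10 were found in both tables, and all 10 passed the filter on low values in each. The entries carry no names. Each was therefore named from the exonic length behind its values and from its place in Ensembl gene order, with a posterior probability of at least 0.95. The lowest posterior among the members was 0.987, for Etfa in the 8-cell table. The name of Etfa in the morula table rests on both tables together, since from the morula table alone its posterior was 0.845.

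The study cultured embryos of superovulated ICR mice in KSOM medium, as controls (labelled WT, with the vehicle not given in the sources used here) or with 100 µM TMZ, added at the 2-cell stage per the labels (the methods name both the zygote and the 2-cell stage as the start). TMZ is trimetazidine, an inhibitor of long-chain 3-ketoacyl-CoA thiolase, the enzyme that ends a round of the pathway. Embryos were collected 70 h (8-cell) and 78 h (morula) after hCG, and each of the 4 groups (8-cell control, 8-cell TMZ, morula control, morula TMZ) had 2 RNA-seq libraries. All embryos were of the same strain and met the drug, where given, in the culture medium. The number of embryos in a library is not given in the sources used here. The number of biological replicates in the methods does not match the 2 libraries per group here. The methods do not say that cultures or animals differed, so P-values measure the spread between these libraries.

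In mitochondrial beta-oxidation a fatty acyl-CoA is oxidised by an acyl-CoA dehydrogenase, hydrated, oxidised again by a hydroxyacyl-CoA dehydrogenase and cut by a thiolase, and the shortened chain re-enters the cycle. The dehydrogenases differ in the chain length they prefer, and they pass their electrons to the electron transfer flavoprotein, which hands them to the respiratory chain through its own oxidoreductase. Long chains are handled at the inner membrane by the trifunctional protein, and shorter ones by soluble matrix enzymes. Preimplantation mouse embryos hold lipid droplets and can use this pathway as an energy source.

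The unit of every level is FPKM, fragments per kilobase of exon scaled to the size of the library. Whole-number steps in the FPKM gave recovered totals between 31672356 and 64814423 counts per library. Both TMZ libraries of the 8-cell table carry one header, so neither can be given a replicate number, and they are named A and B. They were less alike (r = 0.938 across genes, log2 scale) than either was to the 8-cell controls (0.943 to 0.95), whereas morula replicates correlated at 0.976 and 0.979. A gene was called, by the study's own threshold, where its log2 fold change exceeded 0.5 in size with a P below 0.05 before adjustment. The test was limma's, on log2(FPKM + 1) over all genes that averaged 1 FPKM or more. Fold changes below are on this scale, which understates changes of low genes. In these whole-embryo libraries, a smaller share of cells expressing a gene and less of its RNA per cell cannot be told apart.

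The RefSeq promoter windows of 5 members are shown first, from 250 bases before to 50 bases after the start site, since 3 of these genes (Acadvl, Hadha, Hadh) were lower in TMZ morulae and the other two encode the subunits of one protein. All 10 members matched the promoter table, which was made on GRCm38.p6, and each window was found once, letter for letter, in GRCm39, whose coordinates are given. Capitals mark AGGTCA, the half-site of nuclear receptors such as PPARs, and CCAAT, the box bound by NF-Y, on either strand.
Acadvl (chr11:69906205-69906504, minus strand): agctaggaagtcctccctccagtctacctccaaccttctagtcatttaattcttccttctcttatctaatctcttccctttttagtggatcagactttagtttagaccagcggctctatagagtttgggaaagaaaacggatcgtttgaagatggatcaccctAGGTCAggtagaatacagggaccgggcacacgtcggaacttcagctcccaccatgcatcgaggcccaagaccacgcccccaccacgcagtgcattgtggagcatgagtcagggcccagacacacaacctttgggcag
Hadha (chr5:30359929-30360228, minus strand): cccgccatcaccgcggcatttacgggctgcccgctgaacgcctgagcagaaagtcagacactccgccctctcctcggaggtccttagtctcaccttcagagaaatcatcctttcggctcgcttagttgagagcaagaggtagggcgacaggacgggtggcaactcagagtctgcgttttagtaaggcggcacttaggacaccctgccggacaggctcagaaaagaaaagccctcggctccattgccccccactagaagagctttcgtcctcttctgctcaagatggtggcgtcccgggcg
Hadh (chr3:131065701-131066000, minus strand): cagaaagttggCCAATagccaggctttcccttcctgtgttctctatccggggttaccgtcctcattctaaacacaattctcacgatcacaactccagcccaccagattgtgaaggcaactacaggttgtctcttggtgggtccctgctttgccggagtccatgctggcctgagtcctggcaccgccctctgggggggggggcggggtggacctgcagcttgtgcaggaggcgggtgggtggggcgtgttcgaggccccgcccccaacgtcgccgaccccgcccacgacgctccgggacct
Etfa (chr9:55419478-55419777, minus strand): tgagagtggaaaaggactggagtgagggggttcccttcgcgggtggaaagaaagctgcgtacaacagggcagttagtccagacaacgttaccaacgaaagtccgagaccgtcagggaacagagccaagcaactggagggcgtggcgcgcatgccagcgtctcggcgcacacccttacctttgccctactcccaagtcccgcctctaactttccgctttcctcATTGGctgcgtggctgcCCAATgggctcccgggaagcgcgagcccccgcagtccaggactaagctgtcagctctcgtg
Etfb (chr7:43093246-43093545, plus strand): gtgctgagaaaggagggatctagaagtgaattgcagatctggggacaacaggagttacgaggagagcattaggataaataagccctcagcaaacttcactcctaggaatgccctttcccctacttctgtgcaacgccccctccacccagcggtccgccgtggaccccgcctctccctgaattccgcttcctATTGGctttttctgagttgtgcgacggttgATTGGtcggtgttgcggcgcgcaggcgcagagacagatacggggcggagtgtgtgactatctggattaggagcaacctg

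AGGTCA was found in 3 of the 10 windows, against 16.3% of all 32851 promoters in the table. They were those of Acadvl (first base at -87 from the start site), Echs1 (-83) and Acadm (-249, on the other strand). CCAAT was found in 3 windows, against 37.4% of all promoters: once in Hadh, at -239, and as a pair in both flavoprotein subunits, at -28 and -11 in Etfa and at -59 and -29 in Etfb. The Hadha window held neither motif. The longer nuclear receptor motifs, the PPAR direct repeat of AGGTCA, any base and AGGTCA (0.0396% of all promoters) and the ERR element TCAAGGTCA (0.423%), both of which contain the half-site, were in no member's window. A match describes these letters only.

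The members spanned a wide range of levels in control embryos, and the same 3 genes led at both stages. FPKM divide by all exonic bases, including retained introns, so levels were restated per base of the Ensembl canonical transcript before genes were compared (for Acadl, whose 2005 counted bases are fewer than the 2498 of that transcript, the FPKM was kept). On this scale Acadm, the medium-chain dehydrogenase, was highest, at 296 ± 12.4 in 8-cell controls and 360 ± 10.5 in morula controls (SD, n = 2 each). Etfa and Acadl followed, at 96.6 ± 20.5 and 104 ± 43.7 in 8-cell controls and 135 ± 2.32 and 135 ± 1.27 in morula controls. The ranges of these 2 genes overlapped at both stages, so their order was not set.

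**Figure D1:**
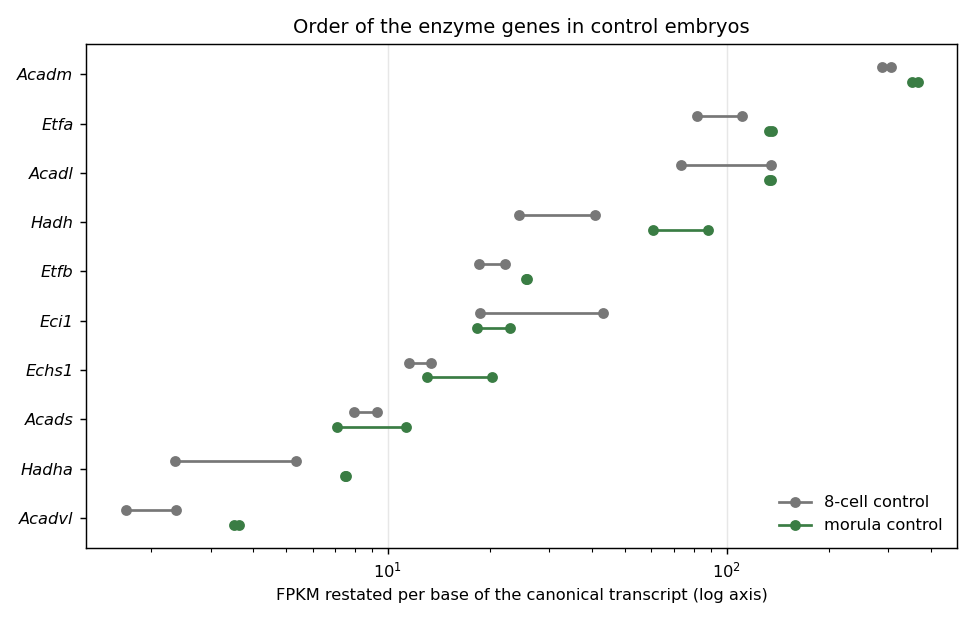
Level of each enzyme gene in control embryos, as FPKM restated per base of the canonical transcript (log axis), with points for the 2 control libraries of a stage joined by a line. Acadm is highest at 296 and 360, and Acadvl is lowest at 2.03 and 3.58.

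At the bottom were the long-chain enzymes Hadha and Acadvl, with 7.51 ± 0.0092 and 3.58 ± 0.0877 in morula controls. In 8-cell controls Hadha stood at 3.86 ± 2.12 and Acadvl at 2.03 ± 0.484, and their ranges overlapped. Hadh, at 74.5 ± 19.5 in morula controls, stood between the leading genes and the group of Etfb (25.6 ± 0.12), Eci1 (20.6 ± 3.18) and Echs1 (16.7 ± 5.15), of which the last 2 overlapped. Acads (9.19 ± 2.998) lay just above Hadha, and these neighbours overlapped too. Acadl and Acadvl, which both act on long chains, stood near opposite ends of the order. The subunits of the electron transfer flavoprotein, which join in equal numbers, also differed, Etfa standing above Etfb in every control library. However, exons of other genes on the same strand cover 58.2% of the exonic bases of Etfb. For Etfa, 24.7% of its 31-base words occur elsewhere in the genome. The part of such shared sequence in this difference was not tested.

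At the 8-cell stage no member passed the threshold in TMZ embryos (0 of 10, against 6.31% of the 10021 genes tested, 4.96% lower and 1.35% higher). At an unadjusted P under 0.05 the number was also 0, and limma voom on the recovered counts gave 0. The median log2 fold change of the members was -0.17, beside -0.19 over all genes tested. Fold changes were below 0 for 6 members (69.1% of all genes tested), of which Hadh turned after median-ratio scaling. TMZ libraries were both below both controls for 2 members, Acadvl and Etfb, against 29.6% of all genes tested, and both above for 0, against 8.09%. Acadvl averaged 1.67 FPKM in controls and 0.834 with TMZ, so it met the filter of 1 FPKM only through its controls.

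**Figure D2:**
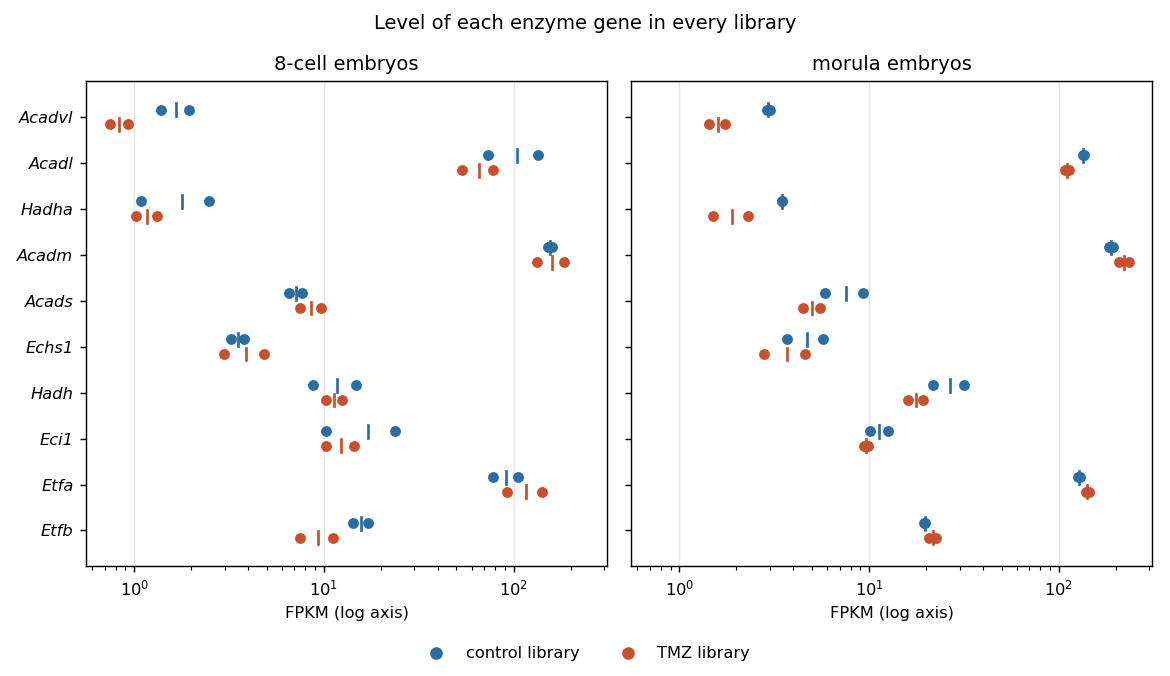
FPKM (log axis) of each enzyme gene in every library, 8-cell embryos on the left and morulae on the right, with short bars at group means (n = 2 libraries). In morulae both TMZ points lie below both control points for Acadvl, Acadl, Hadha, Acads, Hadh and Eci1, and above them for Acadm, Etfa and Etfb.

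In morulae 3 of the 10 members were called lower in TMZ embryos, against 10.7% of the 9685 genes tested, and none was called higher, against 7.16% (17.9% in either direction). These were Acadvl, Hadha and Hadh. None passed the 0.05 limit after adjustment over all genes, a limit that 3 genes of the table (0.031%) passed. TMZ libraries were both below both controls for 6 members (33.3% of all genes) and both above for 3 (22.3%), and Echs1 was the one whose groups overlapped. Fold changes were below 0 for 7 members (57.3% of all genes), and the median over all 10 was -0.28, beside -0.08 over all genes tested. With the libraries rescaled by median ratios, the genes called lower and higher in morulae went from 1040 and 693 to 772 and 946, and at the 8-cell stage from 497 and 135 to 280 and 268.

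**Figure D3:**
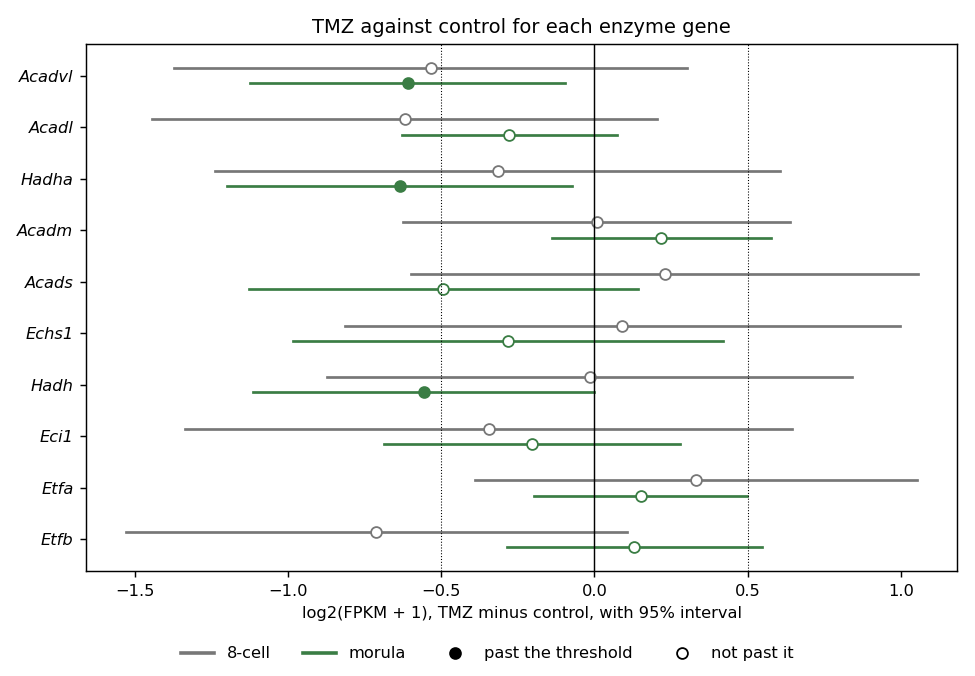
Difference in log2(FPKM + 1), TMZ minus control, with limma's 95% interval, for each enzyme gene at the 8-cell stage (grey) and in morulae (green), where filled points passed the threshold and dotted lines mark the fold limit. Acadvl (-0.61), Hadha (-0.64) and Hadh (-0.56) are the 3 filled points, all in morulae.

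Among the long-chain enzymes, Acadvl and Hadha were called lower in TMZ morulae. Acadvl encodes very long-chain acyl-CoA dehydrogenase, the membrane-bound enzyme of the opening step (GRCm39 chr11:69900853-69906270, minus strand). Its level was 2.998 and 2.896 FPKM in the morula control libraries and 1.75 and 1.43 FPKM in the TMZ libraries. Each TMZ library was thus below each control, and the ratio of the means was 0.54. The log2 fold change was -0.61 ± 0.21 (SE), with a 95% interval from -1.12 to -0.09 (limma, adjusted p = 0.213). Among 8-cell embryos, Acadvl stood at 1.95 and 1.39 FPKM in the controls and at 0.744 and 0.925 FPKM in TMZ libraries A and B. The groups did not overlap, but the log2 fold change of -0.53 ± 0.37 did not pass (limma, adjusted p = 0.809). Acadvl met the filter of 1 FPKM there only through its controls, which favours a lower TMZ level, so this is no repeat of the morula result. Acadvl rested on few counts, 86 to 214 at the 8-cell stage and 122 to 266 in morulae. In addition, 42.5% of its exonic bases lie in exons of Dvl2 on the opposite strand, which had at most 0.194 FPKM in any library.

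Hadha encodes the subunit of the trifunctional protein that carries the hydratase and the long-chain hydroxyacyl-CoA dehydrogenase (chr5:30323302-30360187, minus strand). Morula controls had 3.48 and 3.47 FPKM of Hadha, and TMZ morulae had 2.31 and 1.51. The ratio of the means was 0.549, and the log2 fold change was -0.64 ± 0.24 (SE), with an interval from -1.20 to -0.07 (limma, adjusted p = 0.223). Its partner subunit Hadhb, the thiolase of the complex, stood at 21.6 and 21.2 FPKM in the controls and at 22.7 and 22.0 in TMZ morulae, a log2 fold change of 0.06. 8-cell embryos had 2.48 and 1.09 FPKM of Hadha in the controls, 1.32 in library A and 1.03 in library B. Control 1 was the high library there and the groups overlapped (log2 fold change -0.32, limma, adjusted p = 0.891). Exons of Garem2, on the opposite strand, cover 23.2% of the exonic bases of Hadha. The morula entry closest to Garem2, whose posterior of 0.501 is too low to name it, had 0.548 and 0.47 FPKM in the controls and 0.174 and 0.155 FPKM with TMZ, lower like Hadha. Its part in the Hadha result was not tested.

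Acadl, the long-chain acyl-CoA dehydrogenase (chr1:66868267-66902633, minus strand), was lower in both TMZ morula libraries by a smaller ratio. It had 134 and 136 FPKM in morula controls against 114 and 108 FPKM in TMZ morulae, a ratio of 0.824. Its log2 fold change of -0.28 ± 0.15 did not pass the threshold (limma, adjusted p = 0.324). The 8-cell values were 135 and 73.2 FPKM in the controls and 77.7 and 53.3 FPKM in A and B. Control 1 was the high library, control 2 fell between the TMZ libraries, and the log2 fold change was -0.62 ± 0.36 (limma, adjusted p = 0.79). No exon of another gene overlaps Acadl and none of its 31-base words occurs elsewhere in the genome.

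Acadm, the medium-chain acyl-CoA dehydrogenase (chr3:153627989-153650317, minus strand), was above the controls in both TMZ morula libraries without passing the threshold. Its controls had 193 and 185 FPKM, and TMZ morulae had 207 and 234 FPKM. The log2 fold change was 0.22 ± 0.15 (limma, adjusted p = 0.424), with an interval from -0.14 to 0.58. In 8-cell embryos Acadm had 151 and 160 FPKM in the controls, 184 in A and 133 in B, so the TMZ libraries lay on either side of the controls. The log2 fold change there was 0.01, with an interval from -0.62 to 0.64. Acadm was the most deeply counted member, with 20379 to 33745 counts per library, and 14.3% of its 31-base words also occur elsewhere in the genome.

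The fold changes of all 3 short-chain enzymes were below 0 in morulae, and 1 of them was called. Hadh encodes the matrix 3-hydroxyacyl-CoA dehydrogenase, which acts on short and medium chains (chr3:131027068-131065750, minus strand). Its morula controls had 21.8 and 31.7 FPKM and its TMZ libraries 19.2 and 16.1 FPKM, with a ratio of 0.659. The log2 fold change was -0.56 ± 0.23 (SE, limma, adjusted p = 0.254). Its 95% interval ran from -1.11 to -0.0005, so the call stood at the edge of the threshold. In 8-cell embryos it had 14.8 and 8.79 FPKM in the controls against 12.4 and 10.2 in A and B, with the TMZ libraries inside the range of the controls. The log2 fold change there was -0.02, and 0.22 after median-ratio scaling.

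Acads, the short-chain acyl-CoA dehydrogenase (chr5:115248357-115257405, minus strand), had 5.83 and 9.33 FPKM in morula controls and 5.49 and 4.50 FPKM in TMZ morulae. The groups did not overlap, although control 1 and TMZ 1 were close, and the log2 fold change of -0.49 ± 0.26 did not pass (limma, adjusted p = 0.33). The 8-cell libraries of Acads had 7.65 and 6.57 FPKM in the controls and 7.46 and 9.64 in A and B. The groups overlapped, with library B highest, and the log2 fold change was 0.23 (limma, adjusted p = 0.918).

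Echs1, the short-chain enoyl-CoA hydratase (chr7:139684839-139696570, minus strand), overlapped between groups at both stages. Morula controls had 3.68 and 5.74 FPKM and TMZ morulae 4.598 and 2.812 FPKM. Its 8-cell controls had 3.79 and 3.26 FPKM, with 4.81 in A and 2.98 in B. The log2 fold changes were -0.28 ± 0.29 in morulae and 0.09 ± 0.40 at the 8-cell stage (limma, with intervals from -0.98 to 0.42 and from -0.81 to 0.996). The exonic length behind these values is 8286 bases against a canonical transcript of 2341, and 13.4% of its 31-base words occur elsewhere in the genome.

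Eci1, the enoyl-CoA isomerase that prepares unsaturated chains for the cycle (chr17:24645606-24658535, plus strand), was below the controls in both TMZ morula libraries without passing the threshold. It had 10.1 and 12.5 FPKM in the controls and 9.90 and 9.38 FPKM with TMZ. The 8-cell controls themselves were far apart, at 10.3 and 23.7 FPKM, and the TMZ libraries had 10.2 and 14.4 FPKM. Control 2 was the high library, and the log2 fold changes were -0.20 ± 0.20 and -0.34 ± 0.44 in morulae and 8-cell embryos (limma, with intervals from -0.69 to 0.28 and from -1.33 to 0.65).

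The electron transfer flavoprotein subunits were the members whose TMZ libraries stood above the controls in morulae together with Acadm. Etfa (chr9:55361714-55419792, minus strand) had 129 and 126 FPKM in morula controls and 139 and 144.5 FPKM in TMZ morulae. Etfb (chr7:43093493-43107224, plus strand) had 19.6 and 19.7 FPKM in morula controls and 22.5 and 20.8 FPKM in TMZ morulae. Neither passed the threshold: the log2 fold changes were 0.15 ± 0.14 and 0.13 ± 0.17 (limma, with intervals from -0.20 to 0.50 and from -0.29 to 0.55). Neither passed at the 8-cell stage either, and the difference between the subunits was not tested. Etfb had 14.3 and 17.1 FPKM in the controls and 11.2 and 7.45 FPKM in A and B, both below, with a log2 fold change of -0.71 ± 0.36 (limma, adjusted p = 0.785). Etfa had 105 and 77.5 FPKM in the controls and 141 and 92.0 FPKM in A and B, overlapping, with a log2 fold change of 0.33 ± 0.32 (limma, adjusted p = 0.857). Of the 31-base words of Etfa, 24.7% occur elsewhere in the genome, and exons of Etfbl and Mir7051, on the same strand, cover 58.2% of the exonic bases of Etfb.

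The genes around the flavoprotein were read from a list of 6: Etfdh, Etfbkmt, Etfrf1, Slc25a32, Flad1 and Rfk. All 6 passed the filter. In TMZ morulae 2 were called higher, against 7.16% of all genes tested, and none lower, against 10.7%. The median log2 fold change was 0.21, beside -0.08 over all genes tested. Etfdh, the oxidoreductase that takes electrons from the flavoprotein to ubiquinone, had 1.081 and 1.632 FPKM in the controls and 2.699 and 3.189 FPKM with TMZ, a log2 fold change of 0.75 (limma, adjusted p = 0.193). Etfrf1, a regulatory factor of the flavoprotein, had 8.66 and 7.38 FPKM in the controls and 12.7 and 11.9 FPKM with TMZ, a log2 fold change of 0.57 (limma, adjusted p = 0.21). Flad1, which makes FAD, and Rfk, which makes FMN, had log2 fold changes of -0.36 and -0.21. None of the 6 was called at the 8-cell stage, against 6.31% of all genes tested.

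**Figure D4:**
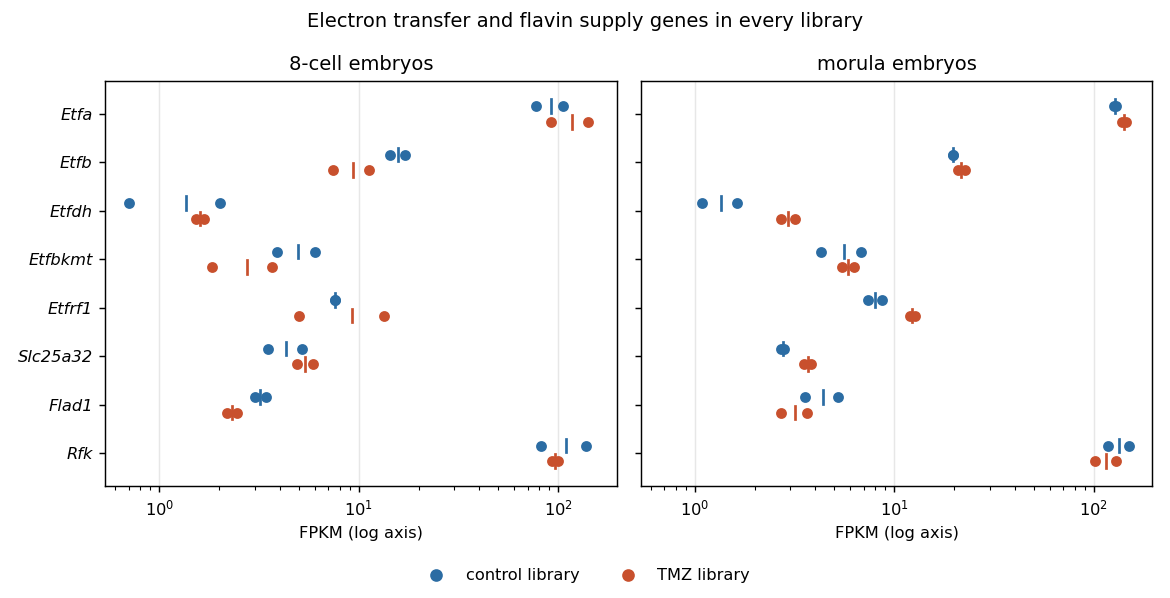
FPKM (log axis) of the flavoprotein subunits and of 6 genes of electron transfer and flavin supply in every library, with short bars at group means (n = 2 libraries). In morulae both TMZ points lie above both control points for Etfa, Etfb, Etfdh, Etfrf1 and Slc25a32, with Etfdh at 2.699 and 3.189 against 1.081 and 1.632. The same held for 22.3% of all genes tested in morulae.

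The list of activation and shuttle genes and that of auxiliary enzymes held no calls, against 6.31% of all genes tested at the 8-cell stage and 17.9% in morulae. Of 12 genes of activation and the carnitine shuttle, Acsl4 and Cpt1b were not named at either stage. Among the other 10, only Slc25a20, the carnitine-acylcarnitine carrier, and Acsl3, a long-chain acyl-CoA synthetase, passed the filter on low values. Neither was called at either stage. Slc25a20 had 30.02 and 35.24 FPKM in morula controls and 29.3 and 29.2 FPKM with TMZ. Acsl3 had 4.33 and 5.27 FPKM against 4.44 and 4.87. Of 16 auxiliary and other acyl-CoA enzymes, Ivd was not named at either stage. In this list 9 genes were tested at the 8-cell stage and 10 in morulae, and 0 were called at each. The median log2 fold changes were -0.31 and -0.30. The most abundant were Hsd17b10, with 40.5 and 43.8 FPKM in morula controls and 27.7 and 67.7 FPKM with TMZ, and Pccb, with 30.8 and 39.1 against 26.5 and 28.2. Of 17 regulators of the pathway, Ppargc1a and Clpp were not named at either stage, nor Mlycd in morulae. In this list 5 genes were tested at each stage, and 1 was called, lower in TMZ morulae (10.7% of all genes tested). It was Rxra, the partner receptor of PPARs, at 1.78 and 1.94 FPKM in the controls and 1.02 and 0.836 FPKM with TMZ (log2 fold change -0.57, limma, adjusted p = 0.225). At the 8-cell stage Rxra had 2.30 and 1.44 FPKM in the controls and 0.704 and 0.521 in A and B. It was not called there (log2 fold change -0.82, limma, adjusted p = 0.771). Its TMZ means, 0.926 in morulae and 0.613 at the 8-cell stage, were under the filter of 1 FPKM. Rxra was thus tested only through its controls, which favours a lower TMZ level.

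The difference between the stages was tested gene by gene with all 8 libraries in one limma fit. A single member, Etfb, passed an unadjusted P of 0.05, against 7.79% of the 8923 genes tested. Its TMZ effect in morulae exceeded that at the 8-cell stage by 0.84 ± 0.36 on the log2 scale (limma, adjusted p = 0.625). For the 3 members called in morulae the differences were -0.08 ± 0.37 (Acadvl), -0.32 ± 0.45 (Hadha) and -0.54 ± 0.43 (Hadh), none of which passed. The TMZ effect on these genes was thus not shown to differ between the stages.

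Of the 12 marker genes of embryos at these stages, 11 were tested in morulae and 8 were called lower in TMZ embryos, against 10.7% of all genes tested. Their median log2 fold change over the 11 was -0.70. At the 8-cell stage 0 of 10 tested were called, against 6.31% of all genes tested. Pou5f1 had 30.2 and 42.4 FPKM in morula controls and 18.97 and 11.03 FPKM with TMZ, and Krt8 had 19.5 and 22.7 against 11.2 and 6.43. The other 6 were Nanog, Cdx2, Cdh1, Tfap2c, Klf5 and Tead4. The summed level of the list, dominated by Dppa5a, was 7428 to 9180 FPKM in morula controls and 7411 to 9025 with TMZ. Krt18, Gata3 and Dppa5a were tested too and not called, at log2 fold changes of -0.20, -0.0035 and 0.0041. The paper reports arrest and delay of TMZ embryos. Collection was at set hours, so drug effect and delay cannot be told apart here. Acadvl, Hadha and Hadh averaged 1.67, 1.79 and 11.8 FPKM in 8-cell controls and 2.95, 3.47 and 26.8 in morula controls. Their TMZ morula means were 1.59, 1.91 and 17.6, and levels were not tested across stages. The part of the markers or of delay in the lower levels of Acadvl, Hadha and Hadh was not tested. Of 8 oocyte transcripts, 2 were tested in morulae and 5 at the 8-cell stage, and none was called. The list summed to 11.9 to 19.4 FPKM in morula controls and 11.5 to 15.2 with TMZ. At the 8-cell stage its sums did not overlap, with 32.5 to 37.3 FPKM in controls and 23.0 to 29.8 with TMZ. Among single genes tested there, 29.6% had both TMZ libraries below both controls. The median log2 fold change of the list was -0.17 there, beside -0.19 over all genes tested. Of the cumulus and granulosa cell list 1 gene was tested, Amhr2, which was called lower at the 8-cell stage (4.96% of all genes tested) and not called in morulae. At the 8-cell stage it had 19.5 and 13.9 FPKM in the controls and 8.41 and 8.21 in A and B (log2 fold change -0.91, limma, adjusted p = 0.771). Fshr, Has2 and Tnfaip6 were below 0.1 FPKM there. Amh, Foxl2, Cyp19a1, Inha and Ptgs2 were not named at that stage, so the list was read only in part. Of the blood list 2 genes were tested and 0 called. The entry named Hba-a1, a globin gene, had 8.05 and 5.40 FPKM in morula controls and 5.93 and 4.12 FPKM with TMZ, and 11.3 and 6.75 against 2.46 and 7.11 FPKM at the 8-cell stage. Cd52 ranged from 1.10 to 2.87 FPKM over all libraries, and Ptprc, the defining leukocyte marker, was below 0.1 FPKM in each. The part of these genes in the members' results was not tested. No named sperm gene passed the filter, and Tnp1 of that list was not named at either stage. In each list and stage with 0 calls, limma gave 0 genes an unadjusted P under 0.05.

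The calls in morulae depended on which libraries were kept. With one library left out, 0 to 2 members were called: 2 without control 1 (Acads and Hadh) or without TMZ 1 (Acadvl and Hadha), and 0 without control 2 or without TMZ 2. The log2 fold changes kept their sign in each of these fits, from -0.70 to -0.52 for Acadvl, from -0.84 to -0.44 for Hadha and from -0.82 to -0.30 for Hadh. After median-ratio scaling Acadvl (-0.54) and Hadha (-0.57) were still called and Hadh (-0.46) was not.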

How the data were processed

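The 8 libraries were made with a full-length single-cell mRNA amplification kit. Per the labels and methods, the authors used fastp 0.23.4, STAR 2.7.9a and featureCounts 2.0.6 on GRCm39, and deposited FPKM in 1 table per stage. The Ensembl release, strand setting and handling of multimapped reads are not given in the sources used here. FPKM are scaled within each library. The stages came in separate tables, and levels were not tested across them.

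Rows carry no gene names. Smallest whole counts and exonic lengths allowed by the FPKM were recovered (Python 3.11.15) and aligned, in gene order, to exon-union lengths of GENCODE vM39 with a pair hidden Markov model. At a posterior of at least 0.95, 26511 entries were named in the 8-cell table and 24146 in the morula table, including 90.4% and 90.1% of the entries tested. Recovered counts may count read ends instead of fragments, since 50.9% to 63.4% were even.

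log2(FPKM + 1) was fitted by limma 3.58.1 (R 4.3.3), with a mean-variance trend, on entries averaging 1 FPKM or more, with Benjamini-Hochberg adjustment, in place of the authors' DESeq2, which needs counts. The fit was tested on simulated data, and the naming by aligning the real entries again with some reference genes removed or changed in length. Numbers of morula replicates did not pair libraries by the labels. Alternatives were a pseudocount of 0.1, other filters, median-ratio scaling, no trend, limma voom, a posterior of 0.99, libraries left out, a replicate block and all 8 libraries together. Named genes are the 10 members, every listed gene past the threshold, and otherwise the 2 most abundant of a list. Members and lists were chosen with earlier results of these data known.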

Additional observations from a re-analysis of the deposited data

Results flagged for a closer look

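Etfb is listed because its TMZ fold changes at the 2 stages differed at an unadjusted P under 0.05, though not after adjustment. Both TMZ libraries were below both controls at the 8-cell stage (11.2 and 7.45 against 14.3 and 17.1 FPKM) and above both controls in morulae (22.5 and 20.8 against 19.6 and 19.7 FPKM). The difference of the log2 fold changes, morula minus 8-cell, was 0.84 ± 0.36 (SE), and 7.79% of the 8923 genes tested passed the same unadjusted limit. It did not pass adjustment over these genes (limma, adjusted p = 0.625). The difference covers the drug effect only, since levels were not tested across stages.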

How the results depend on the processing

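At the 8-cell stage the count of members called (0) became 1 with all 8 libraries in one fit (Etfb) and ran from 0 to 2 with one library left out: Acadl and Etfb without TMZ A, Acadl without control 2 and Etfa without TMZ B. The median log2 fold change there (-0.17) became -0.0152 at a mean of at least 5 FPKM, 0.0528 after median-ratio scaling and -0.32 at a posterior of 0.99, which drops Etfa. With one library left out it ran from -0.20 to 0.0083. Directions that turned at the 8-cell stage were those of Hadh, to 0.22 by median-ratio scaling, and of Acadm, to -0.0015 by voom. With one library left out, Hadha ran from -0.68 to 0.0514, Acadm from -0.22 to 0.24, Hadh from -0.36 to 0.33, Eci1 from -0.91 to 0.22 and Echs1 from -0.18 to 0.36. Acadl (-1.06 to -0.18) and Etfa (0.028 to 0.64) kept their sign but not their size.

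In morulae the count called (3) became 1 at a mean of at least 5 FPKM, where Acadvl and Hadha are not tested, and 1 with all 8 libraries in one fit (Acadvl). With one library left out it ran from 0 to 2, and the median (-0.28) from -0.45 to -0.13. No morula direction turned in any fit, though Echs1 ran from -0.56 to -0.0043 and Acads from -0.79 to -0.19. The call for Hadh was also lost at a pseudocount of 0.1, with no filter, after median-ratio scaling (-0.46), with no trend and by voom (-0.58). A lone library in a group is assumed to vary like the others. Beyond the cases above, the cause was not tested.

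Replicate numbers in morulae share only a number: the deviations of replicate 1 of both groups correlated at 0.0762 over genes. With the replicate block, 3 members were called, as without it, and calls over all genes went from 1733 to 1989. The block could not be fitted at the 8-cell stage, whose TMZ columns carry no number. Acadvl had the fewest counts, 86 in its lowest library, and with 2 libraries a group the precision of every member is limited.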
